A study of Mus musculus with 6 samples.

Results

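The 4 genes of the nuclear factor I (NFI) family, Nfia, Nfib, Nfic and Nfix, were followed through bulk RNA-seq of the developing mouse palate, in order to compare the paralogs with each other in level and in regional bias. They were found by gene symbol among 56691 counted genes, and all 4 passed the filter on low counts that left 15673 genes to be tested. The 6 libraries were made from palatal shelves of C57BL/6J embryos at E14.0, 3 for the anterior and 3 for the posterior part of the shelves. Both regions therefore share strain, stage and tissue, carry no mutation or treatment, and differ by position alone as far as the labels say. The study describes the samples as biologically independent, and the labels do not tie the libraries to single embryos or pools, so the p-values below measure the spread between these libraries.

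NFI proteins are transcription factors that bind DNA as homodimers or heterodimers through a conserved amino-terminal domain and recognise a palindrome whose arms read TTGGC and GCCAA, with 5 bases between them. Their carboxy-terminal parts, which act on transcription, are less alike. Nfia is best known for the switch of neural progenitors to glia, Nfib for maturation of the lung and the forebrain, Nfic for growth of the tooth root, and Nfix for the step from embryonic to fetal muscle and for neural stem cells. In the palate, the anterior shelf contributes mainly to the bony hard palate, and the posterior shelf mainly to the muscular soft palate.

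A stretch of coding sequence shows how alike, and yet separable, the paralogs are to a read counter, and so whether counts of one member could hold reads of another. The 60 coding bases below are the window of highest identity between the longest annotated coding sequences of the 4 genes in GENCODE M21 (GRCm38), in coding orientation, and capitals mark the bases that differ from Nfia.
Nfia: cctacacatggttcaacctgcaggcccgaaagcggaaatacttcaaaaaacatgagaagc
Nfib: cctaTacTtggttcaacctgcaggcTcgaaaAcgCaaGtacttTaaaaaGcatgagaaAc
Nfic: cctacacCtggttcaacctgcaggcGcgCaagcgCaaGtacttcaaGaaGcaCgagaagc
Nfix: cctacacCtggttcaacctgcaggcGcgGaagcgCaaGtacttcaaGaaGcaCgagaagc
The window lies within 1 coding exon of each gene, at chr4:97783134-97783193 on the plus strand for Nfia, chr4:82498658-82498717 on the minus strand for Nfib, chr10:81420687-81420746 on the minus strand for Nfic and chr8:84772204-84772263 on the minus strand for Nfix. Counted from the A of the start codon it begins at base 80 of 1530 in Nfia, 83 of 1713 in Nfib, 149 of 1386 in Nfic and 56 of 1485 in Nfix. Nfib differed from Nfia at 9 of the 60 bases, and Nfic and Nfix at 8 each. Nfic and Nfix were 98.3% identical in the window. Over the aligned coding sequences, identity ranged from 63.9% between Nfib and Nfic to 70.9% between Nfia and Nfix. No stretch of 50 bases was shared between annotated transcripts of any members, of 9894, 9605, 6668 and 6875 distinct stretches in Nfia, Nfib, Nfic and Nfix.

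The libraries held 11378736 to 15172733 reads counted on genes, and are given as CPM on TMM-normalized library sizes. A count of 0 leaves room for up to 3 counts, which is 0.206 to 0.260 CPM in these libraries and covers counting error only. Every member was far above it, with 2459 to 4522 counts per library for Nfia, 5246 to 10664 for Nfib, 2381 to 3335 for Nfic and 3272 to 5046 for Nfix. Genes known to mark the regions followed the labels, with Shox2 at 353.8 to 417 CPM in the anterior and 5.02 to 16.9 CPM in the posterior libraries, and Meox2 at 6.83 to 8.74 and 149 to 242.9 CPM. Msx1 was also higher in all anterior libraries and Tbx22 in all posterior ones. Posterior replicates 2 and 3 stood apart from the rest by their share of multimapping reads, which was 6.12% and 5.94% in them and 8.45% to 8.77% elsewhere. They also stood apart in unmapped reads (4.14% and 4.65%, against 2.71% to 3.04%) and in reads outside genes (5.92% and 6.12%, against 7.64% to 8.71%), and the part of these differences in the NFI values was not tested. Both are posterior, so this difference and the region can be told apart only through posterior replicate 1. The values of the members and of their ratios are therefore also given below from posterior replicate 1 alone. Single genes of the lists and markers are given from all libraries.

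Nfia and Nfib were estimated at 0.650 and 0.585 of their anterior level in the posterior palate, with no overlap between the regions but without passing the adjusted threshold of the test used. Nfic and Nfix were estimated at 1.11 and 1.14 times their anterior level, and their libraries overlapped. Nfia (ENSMUSG00000028565.19) spans chr4:97772734-98118874 on the plus strand. Its normalized counts were 311, 328.8 and 297.9 CPM in the anterior replicates 1, 2 and 3, and 258.8, 177.7 and 173.3 CPM in the posterior ones. The regions did not overlap, and posterior replicate 1 was the posterior library nearest to the anterior level. The means were 312.6 ± 15.5 CPM (SD, n = 3) and 203.2 ± 48.1 CPM (SD, n = 3). The log2 fold change, posterior over anterior, was -0.62 (SE 0.16, 95% interval -1.004 to -0.238), with an adjusted p of 0.0667 in edgeR's quasi-likelihood test. In bulk RNA, fewer cells of an expressing type and less RNA per cell cannot be told apart.

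Nfib (ENSMUSG00000008575.18), on the same chromosome at chr4:82290173-82705750 on the minus strand, showed the same arrangement. Its normalized counts were 797.6, 775.3 and 767.8 CPM in the anterior replicates 1, 2 and 3, and 613.5, 379 and 376.5 CPM in the posterior ones. As for Nfia, the anterior libraries lay close together, all above the posterior ones, and posterior replicate 1 was intermediate. The anterior mean was 780.2 ± 15.5 CPM (SD, n = 3) and the posterior mean 456.3 ± 136.2 CPM (SD, n = 3). The log2 fold change was -0.77 (SE 0.20, 95% interval -1.23 to -0.31, edgeR adjusted p = 0.0590).

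Nfic (ENSMUSG00000055053.19; chr10:81396186-81455635, minus strand) was measured at 180.7, 181.5 and 207.3 CPM in the anterior and at 249.7, 183.7 and 200.5 CPM in the posterior replicates. The regions overlapped, and posterior replicate 1 was the highest library. Its log2 fold change was 0.15 (SE 0.13, 95% interval -0.16 to 0.47, edgeR adjusted p = 0.484), which leaves room for changes in either direction. Nfix (ENSMUSG00000001911.17; chr8:84699876-84800344, minus strand) was similar, with 282.8, 264 and 283.1 CPM in the anterior and 377.7, 274.5 and 296.4 CPM in the posterior replicates. Its log2 fold change was 0.19 (SE 0.13, 95% interval -0.12 to 0.50, edgeR adjusted p = 0.386). Posterior replicate 1 was thus the highest posterior library for each of the 4 members.

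**Figure D1:**
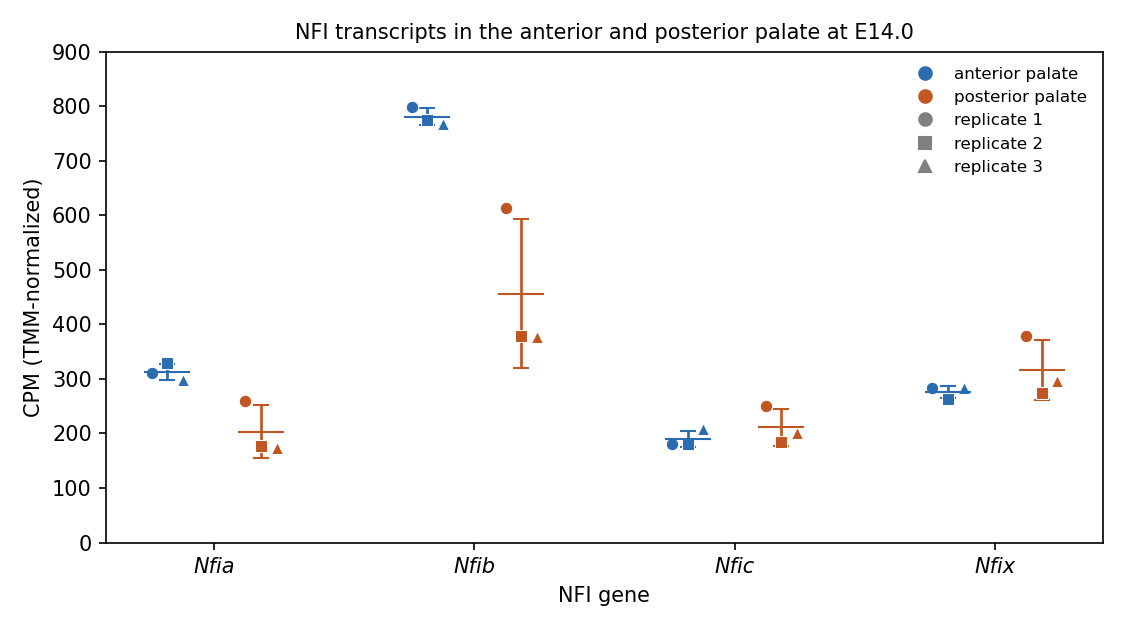
Normalized counts (CPM, linear axis from 0) of Nfia, Nfib, Nfic and Nfix in each of the 6 libraries; points are libraries, horizontal bars the mean of 3 and error bars the SD. The anterior points of Nfib sit between 767.8 and 797.6 CPM, all above the posterior points at 376.5 to 613.5 CPM, while the regions overlap for Nfic and Nfix.

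By edgeR, 0 of the 4 members passed the adjusted threshold of 0.05, against 7.46% of all genes tested. At an unadjusted p under 0.05 there were 2 members, Nfia and Nfib, against 25.2% of all genes. The regions did not overlap for these 2 genes, as for 28% of all genes tested, and the exact two-sided permutation test over the 6 libraries gave p = 0.1 for both, the smallest that 3 against 3 allow. DESeq2, the tool named in the study's methods, called both at the same threshold, with adjusted p-values of 0.0084 for Nfia and 0.00276 for Nfib, where it called 12.6% of all genes, and limma-voom called 0 of the 4. The estimates depended on the posterior libraries that stood apart. Taken from posterior replicate 1 alone, by a term for the 2 groups of libraries, the log2 fold changes were -0.27 for Nfia, -0.35 for Nfib, 0.40 for Nfic and 0.45 for Nfix. In that fit the posterior arm is 1 library that is assumed to vary like the others, so the spread comes from the other libraries and that of the arm itself was not measured. Without posterior replicate 1 the log2 fold changes were -0.83 for Nfia and -1.04 for Nfib, with edgeR adjusted p-values of 5.35e-05 and 1.40e-05, in a comparison where 46.4% of all genes were called. With a correction of each library for transcript length, the log2 fold changes were -0.88 for Nfia, -1.10 for Nfib, 0.02 for Nfic and 0.03 for Nfix, none of them called (edgeR, adjusted p = 0.0926, 0.0933, 0.966 and 0.938).

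Levels of different genes were compared per length, as CPM per kilobase (kb) of merged annotated exons. On this scale the order of the paralogs differed between the regions. In the anterior palate Nfib led with 52.2 ± 1.03 CPM per kb (SD, n = 3), followed by Nfix with 37.6 ± 1.49, Nfia with 28.7 ± 1.42 and Nfic with 28.6 ± 2.28 CPM per kb. Nfib and Nfix were each separated from the next gene in this order by more than the libraries' ranges, and Nfia and Nfic overlapped. In the posterior palate Nfix led with 43 ± 7.40 CPM per kb, followed by Nfic with 31.9 ± 5.17, Nfib with 30.5 ± 9.10 and Nfia with 18.7 ± 4.42 CPM per kb. There Nfix, Nfic and Nfib overlapped with their neighbours in the order, and Nfia lay below all libraries of Nfib. In posterior replicate 1 Nfib was above Nfic, at 41 against 37.7 CPM per kb, so the third place of Nfib came from posterior replicates 2 and 3. When the longest transcript gave the length instead, Nfib moved above Nfic in the posterior palate (50.1 ± 14.9 against 33.9 ± 5.49 CPM per kb), while Nfix stayed first. By their mean CPM per kb over the 6 libraries, the members stood at the 85.6 (Nfia), 92.6 (Nfib), 89.1 (Nfic) and 92.4 (Nfix) percentiles of the genes tested.

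As shares of the summed NFI level per kb, which cancel the scaling of a library, the 2 regions separated for every member. Nfib made up 36.1%, 35.7% and 34.6% of the family in the anterior replicates 1, 2 and 3, and 26.7%, 23.8% and 22.6% in the posterior ones. Nfia held a share of 19.5 ± 1.18% (SD, n = 3) in anterior libraries and of 15 ± 0.649% in posterior ones. Both were thus smaller parts of the posterior pool in each library, posterior replicate 1 included. Nfix held 26.1%, 24.7% and 25.9% in the anterior and 33.4%, 35% and 36.1% in the posterior replicates. Nfic held 19.5 ± 1.40% and 25.9 ± 1.31%. For each share the exact permutation p was 0.1, the smallest possible here, and since the shares add up to the whole they are not independent of one another. The summed level itself was 147.1 ± 1.62 CPM per kb (SD, n = 3) for the anterior and 124.1 ± 25.9 for the posterior libraries (exact permutation, p = 0.4), with posterior replicate 1 at 153.8 and posterior replicates 2 and 3 at 106.7 and 111.6 CPM per kb. Summed as CPM without regard to length, the family was at 1559 ± 11.5 CPM (SD, n = 3) for the anterior and 1187 ± 271.2 CPM for the posterior libraries. On that scale posterior replicate 1, at 1500 CPM, was below the anterior libraries, at 1550 to 1572 CPM, so the regions did not overlap (exact permutation, p = 0.1, the smallest possible).

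**Figure D2:**
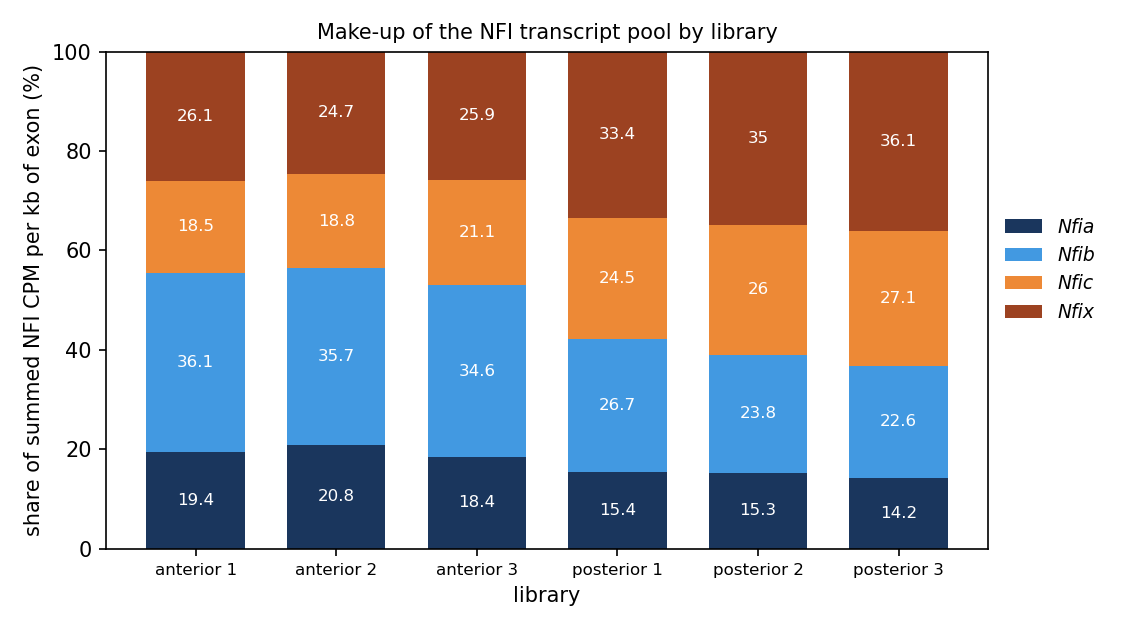
Share of each NFI gene in the summed NFI level per kb of exon (%, stacked to 100) for the 6 libraries. Nfib is the largest part in the 3 anterior libraries, at 34.6% to 36.1%, and Nfix in the 3 posterior libraries, at 33.4% to 36.1%.

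Whether 2 paralogs differed in regional bias was tested on their log2 ratio within each library, for the 6 possible pairs, with limma across all genes. Nfia and Nfib each fell relative to Nfic and to Nfix from the anterior to the posterior palate, whereas neither Nfia against Nfib nor Nfic against Nfix passed the test. The Nfib-to-Nfix log2 ratio was 1.495, 1.554 and 1.439 in the anterior replicates 1, 2 and 3, and 0.70, 0.47 and 0.34 in the posterior ones. It was lower in every posterior library, by 0.99 (SE 0.17, 95% interval of the change -1.38 to -0.61, limma adjusted p = 0.00893). The Nfib-to-Nfic log2 ratio dropped by 0.96 (SE 0.18, limma adjusted p = 0.0141), from a mean of 2.04 to a mean of 1.08.

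The changes in ratio of Nfia had the same direction. The Nfia-to-Nfix log2 ratio was 0.14, 0.32 and 0.07 in the anterior and -0.55, -0.63 and -0.77 in the posterior replicates. The ratio was thus lower in every posterior library. The change was -0.82 (SE 0.13, 95% interval -1.12 to -0.53, limma adjusted p = 0.0111). The Nfia-to-Nfic log2 ratio changed by -0.79 (SE 0.14, 95% interval -1.13 to -0.45, limma adjusted p = 0.0194).

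The 2 remaining pairs did not pass the test. The Nfia-to-Nfib log2 ratio was higher by 0.17 in the posterior palate (SE 0.10, 95% interval -0.08 to 0.41, limma adjusted p = 0.180), and that of Nfic to Nfix differed by -0.03 (SE 0.12, 95% interval -0.32 to 0.25, limma adjusted p = 0.890). Both intervals leave room for a relative change in either direction. The 4 called pairs did not overlap between the regions (exact permutation, p = 0.1). The share of all genes whose ratio to Nfia or Nfib separates the regions was not computed, so this is no result particular to the pairs. Against Nfia, 54.9% of all genes differed in regional bias by the same test and threshold, and against Nfib 69.8%, so a call against either of them is common among genes. Against Nfic it was 5.18%. All 4 called pairs were called also with another prior count, with unstranded counts and with the replicate block, at adjusted p-values from 0.00942 to 0.0350. From posterior replicate 1 alone, by the library-group term, their changes were -0.67, -0.72, -0.74 and -0.80 for Nfia to Nfic, Nfia to Nfix, Nfib to Nfic and Nfib to Nfix. By the same term the changes were 0.08 for Nfia to Nfib and -0.05 for Nfic to Nfix. Each lost its call when 1 of certain single libraries was left out, with adjusted p-values up to 0.122 and with changes in log2 ratio from -1.03 to -0.72 in the fits that lost it.

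**Figure D3:**
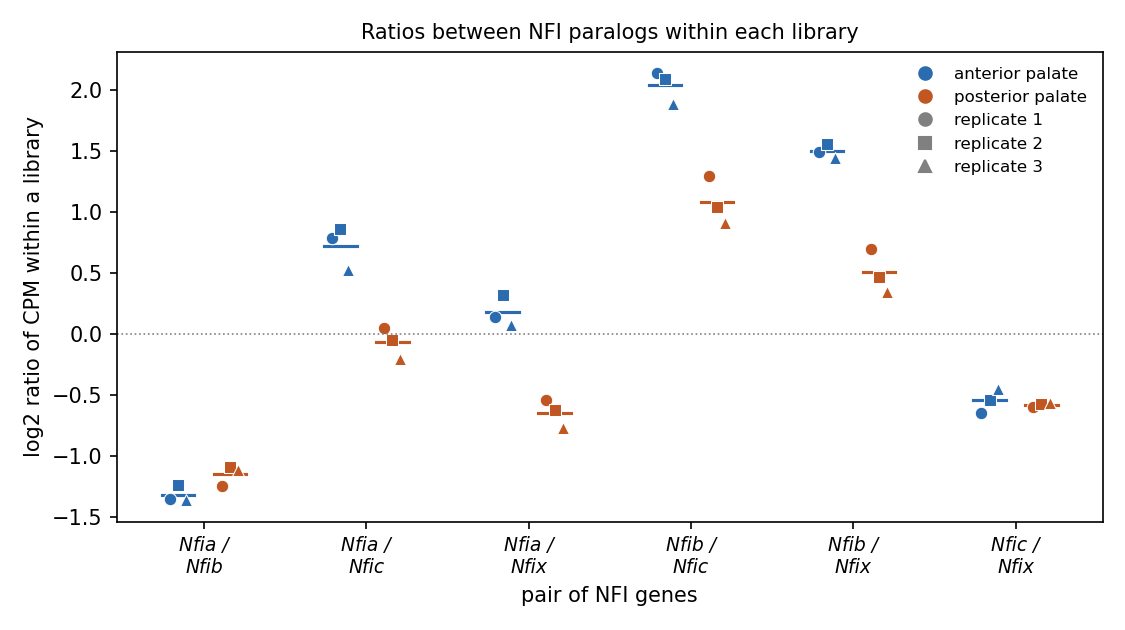
Log2 ratio of CPM between 2 NFI genes in the same library (0, dotted, is equal CPM), for the 6 pairs; points are libraries and bars the mean of 3 per region. The posterior points lie below the anterior ones for the 4 pairs that set Nfia or Nfib against Nfic or Nfix, and the regions overlap for Nfia against Nfib and for Nfic against Nfix.

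The same grouping appeared in how the members varied over the libraries. As a description over 6 libraries, which share region and library group, Pearson's r of log2 CPM was 0.994 between Nfia and Nfib and 0.935 between Nfic and Nfix, and between -0.084 and -0.012 for the 4 cross pairs. Among 11042 tested genes with a mean of at least 100 counts, the patterns most like Nfia were those of Tmem98 (0.998), Slc25a5 (0.998), the mitochondrial ADP/ATP carrier, and Fbxl7 (0.997). For Nfib they were Siah2 (0.998), a ubiquitin ligase, Glod4 (0.997) and Pithd1 (0.997). Such likeness was common, with 1303 genes above 0.9 for Nfia and 1215 for Nfib. For Nfic it was rarer, with 76 genes, led by Bzw2 (0.991), Pcmt1 (0.987) and Inka1 (0.987), and for Nfix 70 genes, led by Uck1 (0.999), B4galt4 (0.993) and Foxk2 (0.982).

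Several annotated genes lie within the NFI loci, and one of them was called. Gm11266, annotated as antisense to Nfib, had 37, 32 and 33 counts in the anterior and 8, 7 and 8 counts in the posterior replicates. The regions were far apart, with means of 2.66 and 0.551 CPM, although the counts are low. Its log2 fold change was -2.25 (SE 0.27, edgeR adjusted p = 0.00313), in the same direction as the estimate for Nfib. Without regard to strand its counts were 38, 33 and 33 in the anterior and 8, 7 and 11 in the posterior replicates. Gm11267, a transcript on the strand of Nfib within an intron, had 13, 24 and 17 counts in the anterior and 32, 2 and 1 in the posterior replicates. Posterior replicates 2 and 3 thus lay below all other libraries, and the gene was not called (edgeR, adjusted p = 0.658). E130114P18Rik, on the strand opposite to Nfia and overlapping it, had 57 to 80 anterior and 37 to 48 posterior counts (log2 fold change -0.78, SE 0.21, edgeR adjusted p = 0.0732).

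The other neighbours did not pass the test. Lyl1, a blood and endothelial transcription factor that overlaps Nfix on the opposite strand, had a log2 fold change of -0.56 (SE 0.27, edgeR adjusted p = 0.248). G430095P16Rik, also within Nfix, and Gm16104, antisense to Nfic, had at most 22 and 17 counts in any library. None of the nearest protein-coding genes with counts on either side was called, namely Tm2d1 beside Nfia, Mpdz and Zdhhc21 beside Nfib, Smim24 and Celf5 beside Nfic, and Trmt1 and Dand5 beside Nfix. Strand mattered most for Nfix, whose unstranded counts differed from the stranded ones used here by -7.91% to -6.71% over the libraries, against -3.52% to -0.840% for Nfic, -1.02% to 0.318% for Nfia and 0.286% to 0.634% for Nfib.

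Gene-regulatory networks that the study inferred from single-cell data of other embryos link Nfia or Nfib to target genes, and these were examined for regional change as a list of 43 genes, all of them tested. Of these, 10 were called by edgeR (23.3%, against 7.46% of all genes tested), 6 higher in the posterior (background 4.87%) and 4 higher in the anterior palate (background 2.59%). The median log2 fold change of the list was 0.15, against -0.004 over all genes tested. Among the 32 genes linked to Nfia, 10 were called (31.2%), 6 higher in the posterior and 4 in the anterior palate. Among the 19 linked to Nfib, 4 were called (21.1%), all higher in the posterior palate and all linked to Nfia as well. The networks were built from highly variable genes of cells on anterior and posterior trajectories. Neither the share called nor the direction is therefore independent evidence, and all genes tested are not a like background for this list.

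The largest change toward the posterior palate on this list was that of Flrt2, a membrane protein of cell adhesion and FGF signalling, at 91.3 to 139.2 CPM in the anterior and 381 to 497.1 CPM in the posterior libraries (log2 fold change 1.97, SE 0.18, edgeR adjusted p = 0.000933). Aspn, a small leucine-rich proteoglycan, was higher by 1.63 on the log2 scale (SE 0.21), and Igf1, a growth factor, by 1.58 (SE 0.18). Unc5d, a netrin receptor, and Epha3, an ephrin receptor, were higher by 1.28 and 1.26. For all of these genes the regions did not overlap. Toward the anterior palate Hmga2, a chromatin protein of proliferating embryonic cells, changed most, with a range of 247.4 to 307.7 CPM over the anterior and of 93.1 to 113.7 CPM over the posterior libraries (log2 fold change -1.43, SE 0.13, edgeR adjusted p = 0.000823). Fam129a and Rsrc1, a gene of RNA splicing, had log2 fold changes of -0.92 (SE 0.12) and -0.58 (SE 0.09). The other 2 called genes, named after their values were seen, were Nlgn1 (1.23) and Frmd4a (-0.56).

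**Figure D4:**
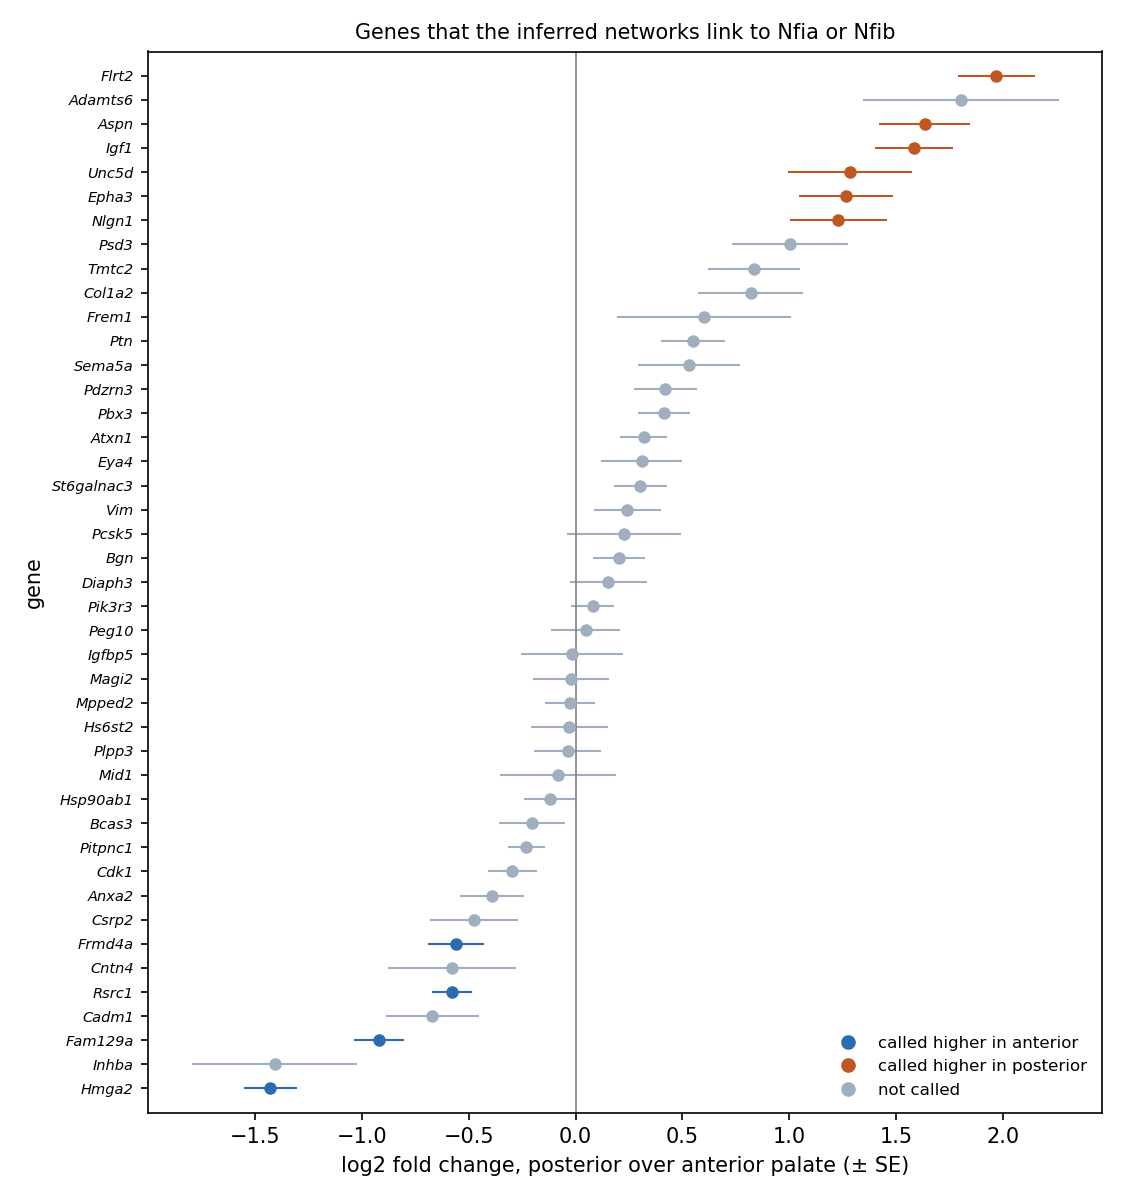
Log2 fold change, posterior over anterior palate, with its SE for the 43 genes linked to Nfia or Nfib in the study's inferred networks, sorted by value. Coloured points are the 10 genes called by edgeR, 6 to the right and 4 to the left, and grey points the 33 genes not called.

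The networks also name regulators placed upstream of Nfia or Nfib. Of 8 such genes, 3 were called (37.5%, against 7.46% of all genes tested), all higher in the anterior palate (background 2.59%), which are the homeobox genes Shox2, Alx1 and Prrx1. Shox2 and Alx1 had log2 fold changes of -5.04 (SE 0.40) and -5.36 (SE 0.28). Prrx1 ranged from 1036 to 1078 CPM over the anterior and from 389.9 to 460.5 CPM over the posterior libraries (log2 fold change -1.34, SE 0.11, edgeR adjusted p = 0.000604). The other 5 did not pass the test, with log2 fold changes of 0.16 for Tcf4, 0.41 for Pbx3, 0.10 for Fli1, 0.61 for Plagl1 and 0.94 for Glis1. The study lists Shox2 and Alx1 as markers of its anterior cells, and Shox2 also served above to check the labels. With networks built for anterior and posterior trajectories, the share and direction of these calls are not independent evidence about regulators of NFI genes.

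The consensus palindrome, TTGGC and GCCAA with 5 bases between them, was looked for in promoter windows from RefSeq (GRCm38.p6, 250 bases before to 50 after each start), on both strands. It occurred in 12 of 32851 windows (0.0365%), in 0 of the 49 windows found for 33 of the network genes and in 0 of the 6 windows found for Nfia, Nfic and Nfix. With the palindrome this rare, 0 hits in so few windows say nothing about these genes. The Nfia window, at chr4:97581693-97581992, lies outside the span given above for the gene, and those of Nfic and Nfix lie inside theirs. A single arm, TTGGC, was in 46.7% of all windows, in 49% of the windows of network genes, and in 3 of the 6 members' windows, all 3 of them at alternative starts of Nfix. The single arm, which overlaps the palindrome, was thus in nearly the same share of all promoters.

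Genes tied to NFI factors in other tissues were read for each tissue in turn. Of 14 genes of brain and glia, 13 were tested and 1 was called, Apcdd1, a Wnt inhibitor, at a mean of 104.2 ± 12.6 CPM (SD, n = 3) over anterior and 320.8 ± 45.7 CPM over posterior libraries (log2 fold change 1.62, SE 0.14, edgeR adjusted p = 0.000807). The median of the list was 0.29. The other 12 genes tested were not called, and Gabra6, a cerebellar GABA receptor subunit named after its values were seen, had 0 counts in every library. Of 7 genes tied to Nfix in muscle, listed without regard to the direction of that tie, 6 were tested and 4 were called. Myh7, the slow myosin heavy chain, had 4 to 10 anterior and 290 to 785 posterior counts (log2 fold change 6.09, SE 0.48), and Pax7, of muscle stem cells, 4 to 16 and 64 to 82 counts (2.74, SE 0.41). Ckm, muscle creatine kinase, had 2 counts in each anterior library and 14 to 22 in the posterior ones. Eno3, a muscle enolase, went the other way, at 27.7 to 51.6 CPM in the anterior and 17.8 to 25 CPM in the posterior libraries (log2 fold change -1.09, SE 0.26, edgeR adjusted p = 0.0462). Junb and Sox6 were not called (0.02 and 0.43), and Mstn, which fell short of the count filter, had 8, 86 and 88 posterior counts.

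Of 6 tooth and bone genes tied to Nfic, 5 were tested and 1 was called. Dmp1, a matrix protein of mineralized tissue, had 72, 74 and 45 counts in the anterior replicates and 1, 14 and 18 counts in the posterior ones (log2 fold change -2.64, SE 0.59, edgeR adjusted p = 0.0380). The osteoblast regulators Runx2 and Sp7 were at -0.63 and -1.39 without passing the test, although their regions did not overlap. Hhip, a hedgehog antagonist, was at 0.94, also without overlap and not called, and Klf4 was at 0.13, not called. Dspp, the dentin gene, was at 0 in all posterior libraries with at most 3 anterior counts. These lists are small, and their shares of 7.69%, 66.7% and 20% of tested genes called stand beside the 7.46% over all genes.

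Cell type markers moved with the regions as well, and their part in the NFI values was not tested. All 11 skeletal muscle markers were called in the posterior direction, with a summed level of 12.1 to 16 CPM in the anterior and 633.6 to 1102 CPM in the posterior libraries. Myod1, a defining muscle regulator, was between 0.0759 and 0.145 CPM in the anterior libraries. Of the cartilage markers 4 of 6 tested were called, all higher in the posterior palate (160.1 to 245.3 and 470.9 to 786.7 CPM summed). Of 8 mesenchymal markers Twist1, Pdgfra and Col3a1 were called toward the posterior and Prrx1 toward the anterior palate, with summed levels of 8902 to 9561 and 11930 to 18400 CPM. Neuronal markers were called for Nefl and Nefm, 2 of 6 tested, at 38.6 to 45.4 CPM summed in the anterior and 45 to 313.6 CPM in the posterior libraries. The upper end is posterior replicate 2 alone, where Tubb3 was at 86.3 CPM, against 17 and 6.38 CPM in posterior replicates 1 and 3. Among bone markers Ifitm5, 1 of 5 tested, was called higher in the anterior palate, with sums of 1849 to 3423 and 226.4 to 1712 CPM, and the enamel gene Ambn was likewise higher there, while Amelx was at 0 in all libraries. Of the epithelial markers 1 of 8 was called, Trp63, higher in the anterior palate (1256 to 1384 and 888.8 to 1475 CPM), of the glial ones 1 of 7, Erbb3, higher in the posterior palate (52.9 to 59.1 and 61.7 to 85.2 CPM), of the endothelial ones 0 of 7 by edgeR (444.7 to 467.8 and 390.2 to 631.5 CPM) and of the myeloid ones 0 of 6 (92.2 to 102.5 and 97.9 to 109.9 CPM).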

How the data were processed

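Bulk RNA-seq of 6 libraries was analysed. For each library the authors deposited raw read counts per Ensembl gene, unstranded and for each strand, laid out as STAR writes them. The submitters' processing notes name HISAT2, StringTie and DESeq2 1.30.1 with mm10, and the annotation version is not given in the sources used here. The reverse-stranded counts were used (18.95 to 23.1 times the other strand), and unmapped and multimapping reads stayed out. Of 56691 identifiers, 52073 were matched, version dropped, to GENCODE M21 for symbols, lengths and positions.

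The test was made on genes that reached 10 counts in 3 or more libraries, by edgeR 4.0.16 (R 4.3.3; TMM, quasi-likelihood test, Benjamini-Hochberg, threshold 0.05), region the only term. CPM are TMM-normalized. Paralogs were compared with limma 3.58.1 on log2 CPM (prior count 2) minus that of the reference member. Both fits were tested on simulated data. DESeq2 1.42.0, limma-voom and other normalizations, filters and terms were alternatives. Within a region, libraries differed beyond sampling noise. The labels do not say whether replicate numbers pair the samples, and the main test did not pair them.

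The members and gene lists were chosen with earlier results of these data known. Named are the members, Shox2, Msx1, Meox2 and Tbx22, up to 4 called genes per list by adjusted p (any gene of lists of 8 or fewer), the 3 most alike genes per member among those with a mean of at least 100 counts, and overlapping or nearest genes. Network lists hold the rows used here of the study's supplementary tables, of which only gene names were taken; 1 row of each network table was not analysed here, so these lists may be incomplete.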

Additional observations from a re-analysis of the deposited data

How the results depend on the processing

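Over 10 alternatives that kept all libraries, Nfia stayed on its side of the threshold in 8, Nfib in 7, and Nfic and Nfix in 9 each, and no direction changed. Nfia and Nfib were called by DESeq2 (log2 fold changes -0.62 and -0.78) and without the low-count filter (-0.62, adjusted p = 0.0145, and -0.77, adjusted p = 0.00624, edgeR). With the library-group term Nfib (-0.35), Nfic (0.40) and Nfix (0.45) were under the threshold, where the posterior arm is 1 library and the spread comes from the other libraries. The length correction moved Nfic and Nfix the other way, to 0.02 and 0.03, and Nfia and Nfib to -0.88 and -1.10, with none called. Leaving out 1 library, the values ran from -0.83 to -0.51 for Nfia, -1.04 to -0.65 for Nfib, 0.02 to 0.25 for Nfic and 0.05 to 0.29 for Nfix; of these, only Nfia and Nfib without posterior replicate 1 were called. Adjusted p-values over the 10 alternatives were 0.0084 to 0.0926 for Nfia and 0.00276 to 0.0933 for Nfib.

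The 1169 genes called became 1978 with DESeq2, 2162 without the filter, and 498 to 7119 with 1 library left out, the highest without posterior replicate 1. The 10 network genes called became 17 with DESeq2, 17 without the filter, 12 with the library-group term and 5 to 29 with 1 library left out, again highest without posterior replicate 1.

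The change in log2 ratio ran, with 1 library left out, from 0.14 to 0.21 for Nfia against Nfib (called without posterior replicate 1, limma adjusted p = 0.0218), -0.89 to -0.72 for Nfia against Nfic (4 of 6 lost the call), -0.88 to -0.75 for Nfia against Nfix (4 lost), -1.06 to -0.87 for Nfib against Nfic (5 lost), -1.09 to -0.91 for Nfib against Nfix (3 lost) and -0.0852 to 0.0132 for Nfic against Nfix, whose sign turned without anterior replicate 3 (0.0132). The fits without a library have fewer samples. With the longest transcript as length, Nfib was at place 2 instead of 3 in the posterior order.

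The deviations of same-numbered samples from their region means were nearly uncorrelated over all genes, at -0.05, 0.05 and 0.04. This cannot exclude pairing, since the means are of 3 libraries each and the labels do not say whether numbers pair samples. With the number as a replicate block 829 genes and 9 network genes were called, and the log2 fold changes were -0.65 for Nfia, -0.81 for Nfib, 0.15 for Nfic and 0.18 for Nfix; the block changed no call of a member or pair.

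Members had at least 2381 counts per library. The number of libraries, 3 per region, keeps the exact permutation p at 0.1 or above, and the library groups cannot be told apart from region within the posterior replicates 2 and 3.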
